A study of Mus musculus with 16 samples.

Results

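The vacuolar proton pump (V-ATPase) subunit genes Atp6v0a1, Atp6v0a2, Tcirg1, Atp6v0d1, Atp6v0d2, Atp6v1a, Atp6v1b2, Atp6v1c1, Atp6v1h and Atp6ap1 were followed in cultured mouse bone marrow-derived mast cells. These 10 genes were picked by name from the 55487 genes of the deposited tables. All 10 were found, and all 10 passed the filter on low counts that left 15470 genes for testing. Polyadenylated RNA was sequenced from 16 libraries, 4 per group, on a C57BL/6 background. The groups were Nbeal2-/- cells given IL-33, Nbeal2-/- cells left untreated, wild-type (WT) cells given IL-33 and WT cells left untreated. The series title speaks of mast cells, whereas the cell type label of the samples reads mononuclear cells. The dose and time of IL-33, the deleted stretch of Nbeal2 and the number of mice behind the replicates are not stated in the labels. The p-values therefore measure only the spread between these samples, and the Xist values given with Atp6ap1 show that the replicates of a group were not all alike.

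The pump is a rotary machine in the membranes of endosomes, lysosomes and secretory granules. Its cytosolic V1 sector burns ATP, and its membrane V0 sector lets protons pass into the organelle along the a subunit and a turning ring of c subunits. Mammals have several a subunit genes whose products reach different organelles, and Tcirg1 encodes the a3 form that osteoclasts need to acidify the bone surface. In mast cells the acid interior of the granules drives the uptake of histamine and serotonin by the amine transporter Slc18a2. Cells also control the pump by taking V1 and V0 apart and putting them together again. IL-33, released by damaged tissue, reaches mast cells by way of the Il1rl1 receptor, and the Nbeal2 protein, which has a BEACH domain, serves the making of platelet alpha granules.

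The labels were checked first. Nbeal2 averaged 70.7 ± 5.38 CPM (counts scaled to the library total and by TMM) in Nbeal2-/- cells with IL-33 and 92.6 ± 8.13 CPM in untreated Nbeal2-/- cells, against 236 ± 35.2 CPM in WT with IL-33 and 377 ± 103 CPM in untreated WT (SD, n = 4 each). The untreated WT replicate 1, at 224 CPM, lay below the other untreated WT libraries. Library totals ran from 36405209 to 57694499 counts. All 9 genes of a mast cell marker list passed the filter on low counts, and none of the 9 was at 0 in any group. Their summed level ran from 51187 to 55597 CPM in Nbeal2-/- with IL-33, from 42049 to 48208 CPM in untreated Nbeal2-/-, from 61717 to 64769 CPM in WT with IL-33 and from 57274 to 60119 CPM in untreated WT. The 4 ranges did not overlap. Tpsb2 averaged 11083 CPM in Nbeal2-/- and 18628 CPM in WT with IL-33, and 3136 and 9761 CPM untreated. Fcer1a averaged 5327 and 5109 CPM with IL-33, and 5226 and 5597 CPM untreated. Kit was lower with IL-33, at 1143 against 2470 CPM in Nbeal2-/- and 1626 against 3855 CPM in WT. Of the 9 genes 6 were lower in untreated Nbeal2-/- cells and 3 with IL-33, beside 17.5% and 5.69% of all genes. No gene of the 9 was higher. The part of these differences in any pump result was not tested. In these bulk samples, fewer cells of a type and less RNA per cell cannot be told apart.

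Sequence upstream of the start site was at hand for 5 of the 10 genes, from RefSeq windows on build GRCm38.p6. The stretches before Atp6v0a1 and Tcirg1 are shown because these 2 isoforms of the same subunit moved in opposite directions with IL-33. That of Atp6v1a, the catalytic subunit, is shown because its transcript rose alongside Atp6v0a1. Each is printed from 5′ to 3′ on the gene's own strand, without bases that the GENCODE M21 annotation places in an exon. Capitals mark a match to a loose AP-1 pattern (TGANTCA, with any base at N) or to the E-box (CACGTG), both searched on either strand.
Atp6v0a1, chr11:101010148-101010397, plus strand: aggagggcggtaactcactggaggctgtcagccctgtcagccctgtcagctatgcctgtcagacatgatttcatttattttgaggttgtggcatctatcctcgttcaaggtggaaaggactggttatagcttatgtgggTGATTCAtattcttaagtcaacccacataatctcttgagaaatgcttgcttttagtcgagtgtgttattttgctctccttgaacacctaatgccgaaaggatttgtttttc
Tcirg1, chr19:3907134-3907383, minus strand: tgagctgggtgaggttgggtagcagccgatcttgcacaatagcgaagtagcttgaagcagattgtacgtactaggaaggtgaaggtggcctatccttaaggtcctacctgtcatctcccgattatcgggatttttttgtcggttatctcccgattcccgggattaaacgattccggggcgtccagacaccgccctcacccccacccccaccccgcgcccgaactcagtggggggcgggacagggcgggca
Atp6v1a, chr16:44139306-44139461, minus strand: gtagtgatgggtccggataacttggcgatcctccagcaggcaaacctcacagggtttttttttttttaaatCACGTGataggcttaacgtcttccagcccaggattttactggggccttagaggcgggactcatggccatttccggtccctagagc

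The Atp6v0a1 stretch holds 1 match to the loose AP-1 pattern, at position -111 from the RefSeq start site. Its letters are TGATTCA, with T at the centre base that the pattern leaves free. GENCODE models begin 946 bases further upstream, so 5 annotated transcripts span this stretch as intron. The Atp6v1a stretch holds 1 E-box, at position -131, and here GENCODE models reach 446 bases further upstream. No match to either motif occurs in the Tcirg1 stretch. Among 300-base RefSeq windows of the whole genome, an E-box occurred in 2349 of 32851 (7.15%), and an AP-1 match in 2565 (7.81%). Among 24 windows of pump subunit genes, 4 held an E-box (16.7%) and 1 held an AP-1 match (4.17%). The longer CLEAR palindrome, which contains the E-box letters and which TFEB and its relatives bind, occurred in 107 of all windows (0.326%). None of the 24 pump windows held it. A match describes letters in a window and is no evidence that a factor binds there.

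**Figure D1:**
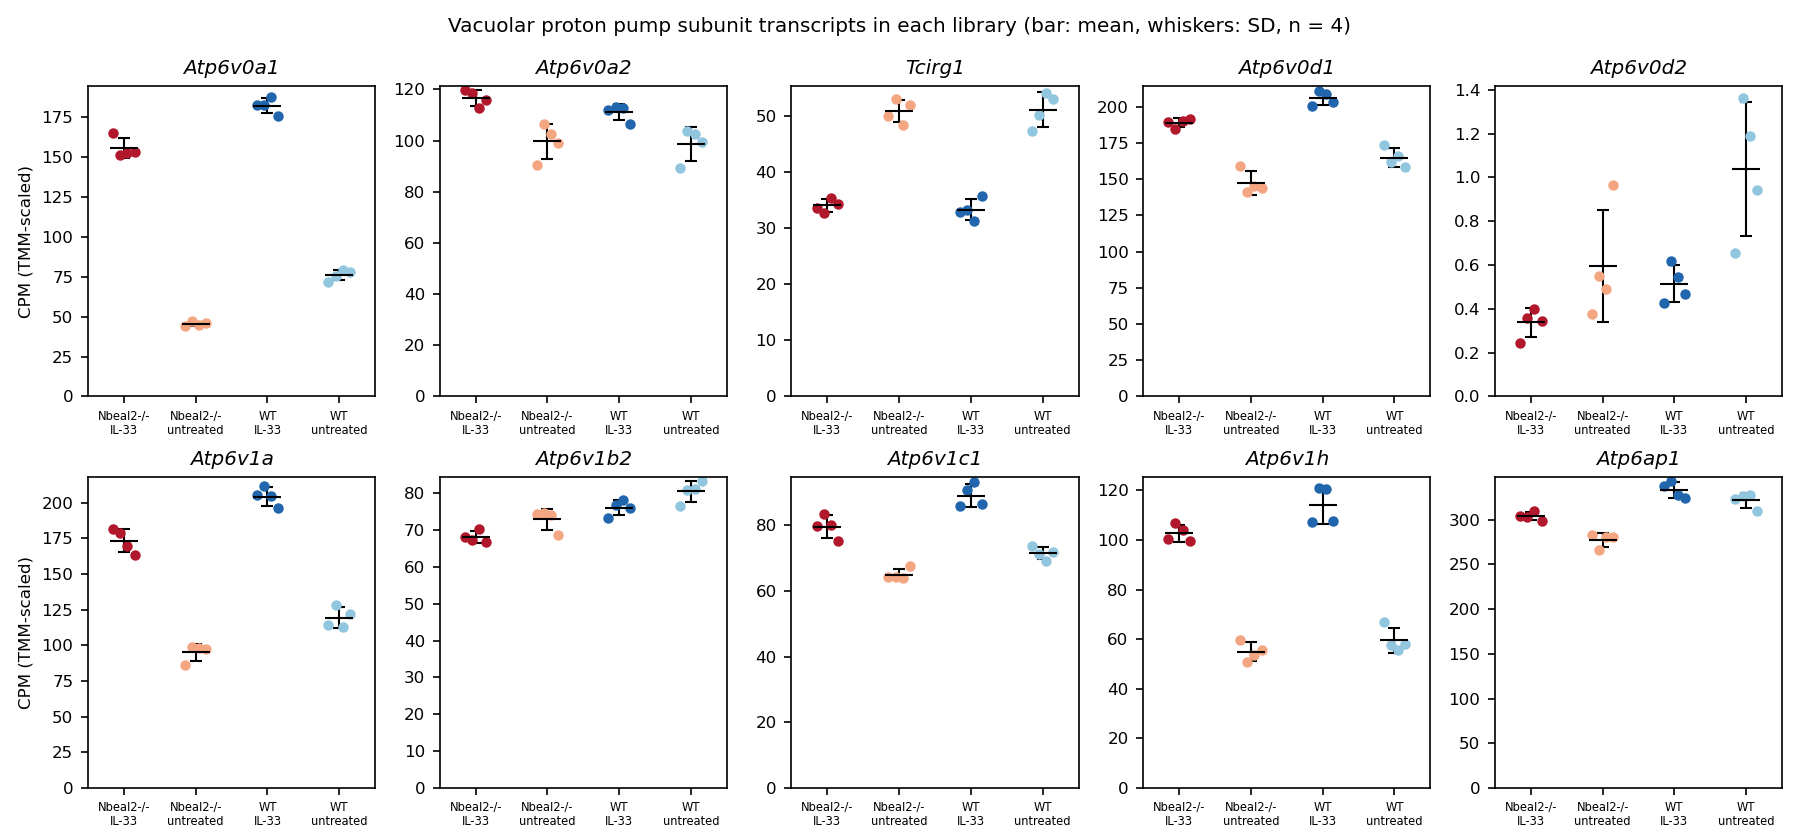
TMM-scaled CPM (vertical axes, each from 0) of the 10 pump subunit genes in every library, by group. Points are libraries, horizontal bars are means and whiskers are SD (n = 4 per group). Atp6v0a1 stands near 156 and 182 CPM with IL-33 in Nbeal2-/- and WT cells, and near 45.6 and 75.9 CPM without it, while Tcirg1 lies lower in both IL-33 groups.

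IL-33 changed most of these transcripts in both genotypes, as plotted per library for each gene. With IL-33, 7 of the 10 genes were higher and 3 were lower in Nbeal2-/- cells. In WT cells 6 were higher, 2 were lower and 2 did not pass the test, which was edgeR's quasi-likelihood test with Benjamini-Hochberg adjustment over all genes and a threshold of 0.05. For comparison, 55.1% of all genes tested passed in Nbeal2-/- cells, 27.2% higher and 27.9% lower. In WT cells 57.6% passed, 28.9% higher and 28.6% lower. The median log2 fold change of the 10 genes was 0.26 in Nbeal2-/- and 0.24 in WT cells, beside -0.01 and 0.00 over all genes. The libraries of the 2 conditions did not overlap for 8 genes in each genotype, and for 50.7% of all genes in Nbeal2-/- and 52.4% in WT. Because the genes were chosen with earlier results known, these counts describe them and are not read against that background.

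Among the a subunits, which carry the proton path, Atp6v0a1 moved most. This gene (chr11:101009452-101063719, plus strand, GRCm38) encodes a1, the form best known from synaptic vesicles of neurons. Its level was 165, 152, 153 and 153 CPM in Nbeal2-/- replicates 1 to 4 with IL-33, against 44.4, 47.1, 44.9 and 46.0 CPM in the untreated ones. In WT it was 183, 182, 187 and 176 CPM with IL-33, against 71.7, 75.2, 79.0 and 77.8 CPM without it. All IL-33 libraries stood above all untreated ones, and the untreated Nbeal2-/- libraries were the lowest of the 16. The rise was 3.41-fold in Nbeal2-/- cells (log2 1.77, SE 0.04, adjusted p = 8.26e-16) and 2.40-fold in WT cells (log2 1.26, SE 0.04, adjusted p = 6.18e-14).

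Tcirg1 (chr19:3896050-3907133, minus strand), which encodes a3, the form of lysosomes and of the osteoclast surface, moved the other way. It stood at 33.6, 32.7, 35.4 and 34.3 CPM in Nbeal2-/- with IL-33, against 50.0, 52.9, 48.4 and 51.8 CPM untreated. In WT the values were 32.8, 33.3, 31.1 and 35.8 CPM with IL-33, against 47.2, 50.1, 54.0 and 52.9 CPM untreated. The IL-33 and untreated libraries did not overlap in either genotype, while the genotypes overlapped under both conditions. Tcirg1 fell 1.49-fold in Nbeal2-/- (log2 -0.58, SE 0.05, adjusted p = 4.77e-08) and 1.54-fold in WT (log2 -0.62, SE 0.05, adjusted p = 1.85e-08).

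Atp6v0a2 (chr5:124628576-124724455, plus strand) encodes a2, a form of the Golgi and early endosomes, and changed least of the 3. Its level was 119.7, 118, 113 and 116 CPM in Nbeal2-/- with IL-33, against 90.4, 107, 102 and 99.2 CPM untreated. WT cells had 112, 113, 113 and 107 CPM with IL-33, against 89.2, 104, 103 and 99.6 CPM untreated. The lowest IL-33 library of each genotype lay just above its highest untreated one. Atp6v0a2 rose by 0.23 in log2 in Nbeal2-/- cells (SE 0.05, adjusted p = 0.00145) and by 0.17 in WT cells (SE 0.05, adjusted p = 0.0113). Both calls were lost with limma on log2(RPM + 1), at adjusted p = 0.0938 and 0.239. The WT call was also lost without WT IL-33 replicate 1 (0.0509), 2 (0.0599) or 3 (0.0537), or without untreated WT replicate 1 (0.0883). In the annotation 9.86% of its exon bases overlap 4930404A12Rik on the opposite strand, a gene with 31 counts in all libraries together, against 78027 for Atp6v0a2. The fourth a gene, Atp6v0a4, which encodes the kidney form, had 0 counts in all 16 libraries. A count of 0 allows up to 3 counts in 735462073, or 0.00408 RPM.

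Levels of different genes were compared per length, in the authors' RPKM, and without a test. For Atp6v1h and Atp6v0a2 the length used matched that of all annotated exon bases, 9746 and 6726. The length of the transcripts present was not measured. The height of a share, ratio or rank therefore depends on the length used, which was the same in every group. Atp6v0a1 made up 49.0% ± 0.767 of the summed a subunit RPKM in Nbeal2-/- cells with IL-33 and 21.2% ± 0.424 in untreated Nbeal2-/- cells (SD, n = 4 each). Its share was 53.9% ± 0.697 in WT with IL-33 and 31.0% ± 0.562 in untreated WT. Tcirg1 held 15.2% ± 0.702 in Nbeal2-/- with IL-33, against 33.6% ± 1.15 untreated, and 14.0% ± 1.00 in WT with IL-33, against 29.7% ± 0.606 untreated. Atp6v0a2 held 35.8% ± 0.754 in Nbeal2-/- with IL-33, against 45.1% ± 1.52 untreated, and 32.1% ± 0.435 in WT with IL-33, against 39.3% ± 1.04 untreated. In the stacked plot of shares, Atp6v0a1 was the largest of the 3 in all 8 IL-33 libraries and Atp6v0a2 in all 8 untreated ones.

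**Figure D2:**
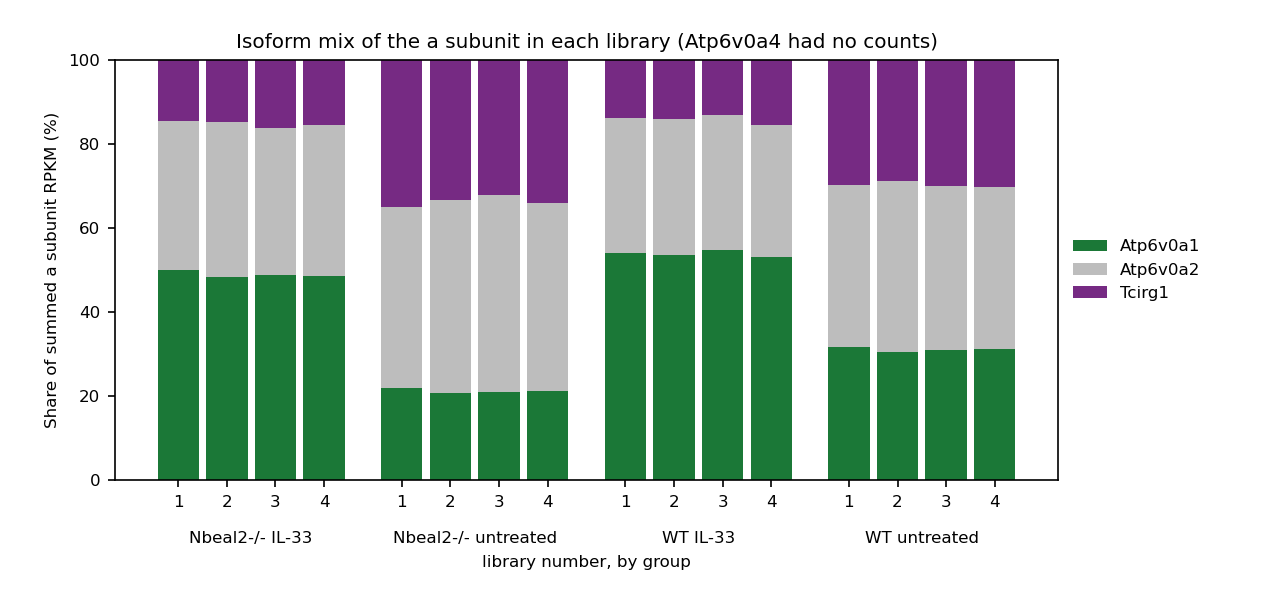
Share of each a subunit isoform in the summed a subunit RPKM (vertical axis, percent), as 1 stacked bar per library, 4 libraries per group. Atp6v0a1 covers between 48.3% and 54.8% of the bar in every IL-33 library and between 20.8% and 31.7% in every untreated one.

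The ratio of Atp6v0a1 to Tcirg1 in RPKM summed up this shift, though its height depends on the lengths used. It was 3.22 ± 0.179 in Nbeal2-/- with IL-33 and 0.631 ± 0.0136 in untreated Nbeal2-/- cells, and 3.86 ± 0.316 in WT with IL-33 and 1.04 ± 0.0184 in untreated WT. Tcirg1 thus exceeded Atp6v0a1 per length in the untreated Nbeal2-/- libraries, whereas in untreated WT their ranges overlapped, with Atp6v0a1 slightly above Tcirg1 in each of the 4 libraries. The a subunit genes together reached 46.7 ± 0.826 RPKM in Nbeal2-/- with IL-33, against 34.2 ± 1.96 RPKM untreated. In WT the sum was 49.9 ± 0.415 RPKM with IL-33, against 38.5 ± 2.2 RPKM untreated. The total of the isoforms was thus higher with IL-33 while their mix changed.

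The d subunit couples the turning c ring to the V1 stalk and has 2 genes. Atp6v0d1 (chr8:105524465-105566047, minus strand), the ubiquitous form, was at 189.6, 185, 190.0 and 192 CPM in Nbeal2-/- with IL-33, against 159, 141, 145 and 144 CPM untreated. WT libraries had 201, 211, 209 and 203 CPM with IL-33, against 173, 162, 166 and 159 CPM untreated. The IL-33 libraries lay above the untreated ones in both genotypes. Atp6v0d1 rose by 0.36 in log2 in Nbeal2-/- (SE 0.04, adjusted p = 1.29e-06) and by 0.32 in WT (SE 0.04, adjusted p = 4.72e-06).

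Atp6v0d2 (chr4:19876841-19922605, minus strand), the d form of osteoclasts and some macrophages, was barely present. It had 12, 14, 14 and 14 counts in Nbeal2-/- with IL-33, against 19, 30, 24 and 45 untreated, and 24, 25, 21 and 21 counts in WT with IL-33, against 37, 55, 48 and 52 untreated. Scaled, this was 0.337 ± 0.0655 CPM in Nbeal2-/- with IL-33, 0.595 ± 0.256 in untreated Nbeal2-/-, 0.515 ± 0.0856 in WT with IL-33 and 1.04 ± 0.306 in untreated WT (SD, n = 4 each). Per length, Atp6v0d2 made up between 0.118% and 0.416% of the summed d subunit RPKM as group means. With IL-33 it fell by 0.82 in log2 in Nbeal2-/- cells (SE 0.31, adjusted p = 0.0316), where libraries overlapped, and by 1.00 in WT (SE 0.28, adjusted p = 0.00484), where they did not. The Nbeal2-/- call was lost without the untreated Nbeal2-/- replicate 4, at log2 -0.50 and adjusted p = 0.153, or without Nbeal2-/- IL-33 replicate 1, at log2 -0.70 and adjusted p = 0.0927, and also without all libraries numbered 2 (0.0644), 3 (0.0529) or 4 (0.231). Each value rests on few counts.

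Tcirg1 and Atp6v0d2 are both used by macrophages and osteoclasts, so a list of 18 markers of those cells was read beside them. Their summed level ran from 241 to 267 CPM in Nbeal2-/- with IL-33, against 297 to 402 CPM untreated, and from 251 to 304 CPM in WT with IL-33, against 353 to 451 CPM untreated. Only 10 of the 18 passed the filter on low counts. Ocstamp and Calcr, which mark osteoclasts, were at 0 in all groups. Dcstamp was at 0 in all groups but Nbeal2-/- with IL-33, and Mertk was at 0 in both Nbeal2-/- groups. The lower sum with IL-33 rests on 1 gene, Cx3cr1, at 99.4 ± 10.8 CPM in Nbeal2-/- with IL-33 and 219 ± 32.2 CPM untreated, and at 107 ± 17.9 CPM in WT with IL-33 and 261 ± 28.7 CPM untreated. Without Cx3cr1 the sum ran from 156 to 162 CPM in Nbeal2-/- with IL-33, against 124 to 161 CPM untreated, and from 166 to 175 CPM in WT with IL-33, against 131 to 163 CPM untreated. Most of this remainder was again 1 gene, Nfatc1. It was at 126 ± 4.64 CPM in Nbeal2-/- with IL-33 and 111 ± 12.5 CPM untreated, and at 142 ± 5.34 CPM in WT with IL-33 and 124 ± 12.8 CPM untreated. The sums therefore say little of the sparser markers. Of the 10 tested markers, 1 rose and 3 fell with IL-33 in Nbeal2-/-, beside 27.2% of all genes higher and 27.9% lower. In WT 3 rose and 3 fell, beside 28.9% and 28.6% of all genes. The median log2 change of the 10 markers was -0.52 in Nbeal2-/- and -0.69 in WT. Marco, a scavenger receptor, was among those that rose, at 3.98 ± 0.672 CPM in Nbeal2-/- with IL-33 and 0.0812 ± 0.0493 CPM untreated, and at 6.78 ± 2.04 CPM in WT with IL-33 and 0.240 ± 0.0800 CPM untreated. Itgax and Fcgr1, also sparse, had lower means with IL-33. Itgax averaged 1.21 ± 0.648 CPM in Nbeal2-/- with IL-33 and 4.15 ± 1.79 CPM untreated, and 1.54 ± 0.844 CPM in WT with IL-33 and 4.04 ± 2.31 CPM untreated. Fcgr1 averaged 0.594 ± 0.140 and 1.11 ± 0.290 CPM in Nbeal2-/-, and 0.462 ± 0.0424 and 1.18 ± 0.279 CPM in WT, in the same order. The part of the 18 markers in the change of Tcirg1 and Atp6v0d2 was not tested. The other marker sums are given with the genotype comparison.

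Of the V1 subunits, the catalytic A subunit gene Atp6v1a (chr16:44085402-44139705, minus strand) followed Atp6v0a1 in direction. It was at 181, 179, 170.0 and 164 CPM in Nbeal2-/- with IL-33, against 86.0, 99.0, 98.2 and 97.2 CPM untreated. In WT it was at 205, 211, 205 and 196 CPM with IL-33, against 114, 129, 113 and 122 CPM untreated. No IL-33 library overlapped an untreated one. The rise was 1.82-fold in Nbeal2-/- (log2 0.87, SE 0.05, adjusted p = 3.25e-10) and 1.71-fold in WT (log2 0.78, SE 0.05, adjusted p = 1.27e-09).

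Atp6v1h (chr1:5070018-5162529, plus strand) encodes the H subunit, which joins V1 to V0 and holds back ATP use by free V1. It had 100.3, 107, 104 and 99.6 CPM in Nbeal2-/- with IL-33, against 59.6, 50.6, 53.7 and 55.7 CPM untreated, and 107, 121, 120.5 and 108 CPM in WT with IL-33, against 66.8, 57.5, 55.5 and 58.2 CPM untreated. IL-33 libraries were again all above untreated ones. The rise was 1.87-fold in Nbeal2-/- (log2 0.90, SE 0.06, adjusted p = 1.58e-09) and 1.92-fold in WT (log2 0.94, SE 0.06, adjusted p = 8.83e-10).

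The C subunit gene Atp6v1c1 (chr15:38661933-38692446, plus strand), whose product bridges V1 and V0 and is released when they part, changed less. Its level was 79.7, 83.5, 80.3 and 75.2 CPM in Nbeal2-/- with IL-33, against 64.2, 64.2, 64.0 and 67.5 CPM untreated. In WT it was 85.7, 90.9, 93.1 and 86.5 CPM with IL-33, against 73.6, 71.4, 69.1 and 71.7 CPM untreated. All IL-33 libraries exceeded all untreated libraries of the same genotype. The change was 0.29 in log2 in Nbeal2-/- (SE 0.04, adjusted p = 1.04e-05) and 0.32 in WT (SE 0.04, adjusted p = 3.87e-06).

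Atp6v1b2 (chr8:69088646-69113711, plus strand) encodes the B subunit that alternates with A in the ATP-binding ring, and it did not share the rise of Atp6v1a. It stood at 68.0, 67.4, 70.3 and 66.7 CPM in Nbeal2-/- with IL-33, against 74.3, 74.5, 74.2 and 68.7 CPM untreated. WT cells had 73.2, 76.8, 78.1 and 75.9 CPM with IL-33, against 76.5, 81.0, 81.3 and 83.4 CPM untreated. The conditions overlapped in both genotypes, although the IL-33 library was the lower one in all 4 same-numbered pairs of each, by 0.04 to 0.14 in log2 in Nbeal2-/- and by 0.06 to 0.14 in WT. The log2 change was -0.10 in Nbeal2-/- (SE 0.04, adjusted p = 0.0449) and -0.08 in WT (SE 0.04, adjusted p = 0.0857). Without TMM, limma on log2(RPM + 1) gave -0.21 in Nbeal2-/- (adjusted p = 0.000173) and -0.17 in WT (adjusted p = 0.00112). With the replicate number as a block the Nbeal2-/- change had an adjusted p of 0.055. It also did not pass with RLE size factors (0.0592), no filter on low counts (0.0572) or only the groups compared (0.0711), nor without untreated Nbeal2-/- replicate 1 (0.0798), 2 (0.108) or 3 (0.102). The WT change passed without untreated WT replicate 1 (0.0107) and without WT IL-33 replicate 2 (0.0455) or 3 (0.0314). The other B gene, Atp6v1b1, had 1 count in all libraries together, and the other C gene, Atp6v1c2, had 3.

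Atp6ap1 (chrX:74297097-74304721, plus strand) encodes the accessory protein Ac45, which helps assemble V0. It was at 305, 303, 309 and 299 CPM in Nbeal2-/- with IL-33, against 283, 266, 280.4 and 281 CPM untreated, and at 337, 343, 327 and 324 CPM in WT with IL-33, against 323, 327, 328 and 309.7 CPM untreated. The Nbeal2-/- libraries did not overlap between conditions and the WT libraries did. The change was 0.13 in log2 in Nbeal2-/- (SE 0.04, adjusted p = 0.00571) and 0.05 in WT (SE 0.04, adjusted p = 0.253). It depends on the scaling. On the RPM scale, without TMM, limma gave 0.02 in Nbeal2-/- (adjusted p = 0.707) and -0.04 in WT (adjusted p = 0.356). Without Nbeal2-/- IL-33 replicate 3 the Nbeal2-/- change was 0.10 with adjusted p = 0.0586, and it also did not pass with no filter (0.0775) or without all libraries numbered 2 (0.055).

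**Figure D3:**
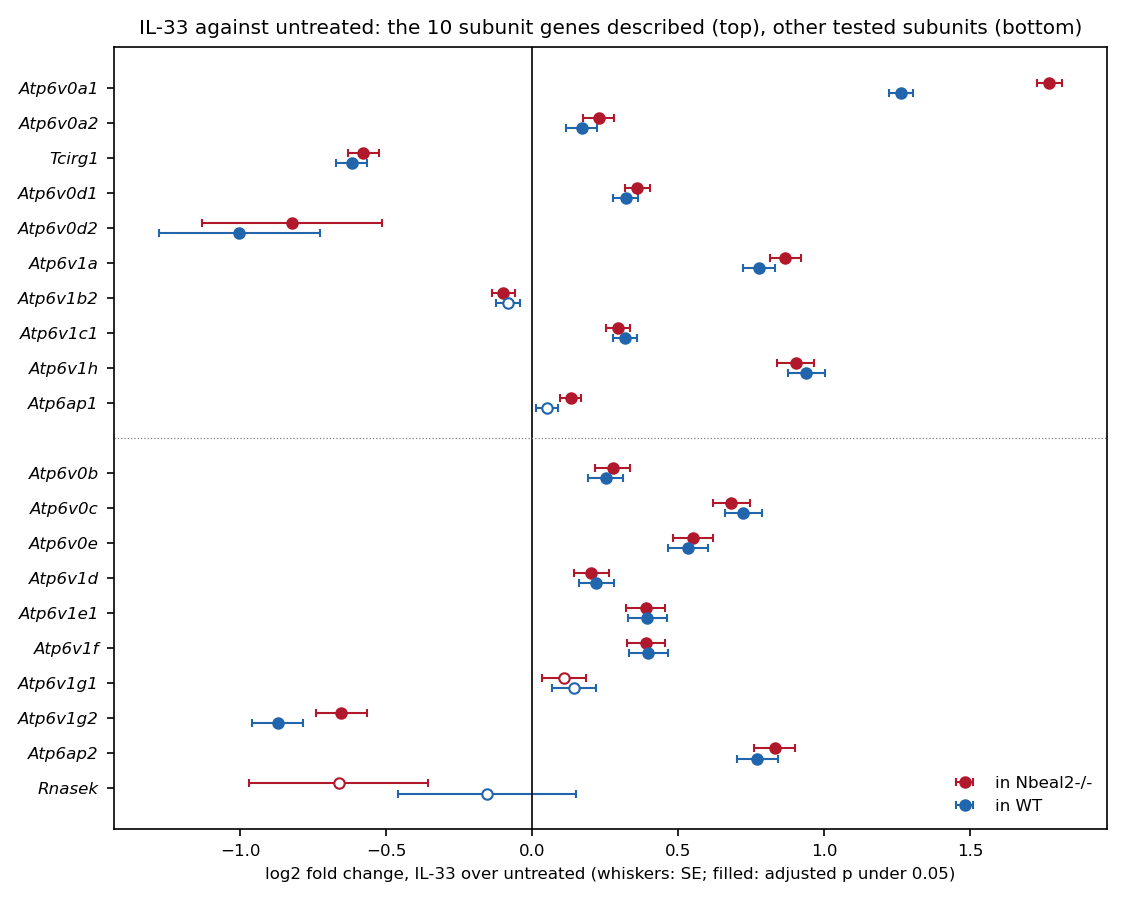
Log2 fold change of IL-33 over untreated (horizontal axis) for the 10 genes described (top) and 10 other tested pump subunits (bottom), in Nbeal2-/- and WT cells. Whiskers are SE and filled points passed the test at adjusted p under 0.05. Atp6v0a1 lies farthest right at 1.77 and 1.26. Tcirg1, Atp6v0d2, Atp6v1g2 and Atp6v1b2 are among the genes left of 0 in both genotypes, the last at -0.10 and -0.08.

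The rest of the pump was read from a list of 16 other subunit genes, of which 10 passed the filter on low counts. In Nbeal2-/- cells with IL-33, 7 of these 10 rose, 1 fell and 2 did not pass the test, beside 27.2% of all genes higher and 27.9% lower. WT cells gave the same counts, beside 28.9% higher and 28.6% lower. The median log2 change of the 10 was 0.33 in Nbeal2-/- and 0.32 in WT. Atp6ap2, the prorenin receptor and second accessory protein, rose by 0.83 in log2 in Nbeal2-/- (SE 0.07) and by 0.77 in WT (SE 0.07). Atp6v0c, which encodes the c subunit of the ring, rose by 0.68 in Nbeal2-/- and by 0.72 in WT (SE 0.06 each). A processed copy, Atp6v0c-ps2, had 9079 counts in all libraries against 160851 for Atp6v0c, so reads between the 2 may have been split. Atp6v0e rose by 0.55 in Nbeal2-/- and by 0.53 in WT, the stalk genes Atp6v1e1 and Atp6v1f by 0.39 to 0.40 in both, Atp6v0b by 0.28 and 0.25, and Atp6v1d by 0.20 and 0.22. Atp6v1g2, a G subunit gene known from neurons, fell by 0.65 in Nbeal2-/- and by 0.87 in WT (SE 0.09 each), and 5.74% of its exon bases overlap Nfkbil1 on the opposite strand.

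Of the G subunit genes, Atp6v1g1 changed by 0.11 in Nbeal2-/- (adjusted p = 0.241) and by 0.14 in WT (adjusted p = 0.116) in log2. It was the abundant G gene, at 93.0 RPKM in Nbeal2-/- with IL-33, 93.3 in untreated Nbeal2-/-, 95.9 in WT with IL-33 and 92.5 in untreated WT. Atp6v1g2 was at 2.21, 3.77, 2.21 and 4.32 RPKM in the same groups. Rnasek, a small protein bound to the pump, had between 9 and 31 counts per library and did not pass, with 67.68% of its exon bases shared with Gm21988. The 6 genes that failed the filter on low counts were Atp6v0a4 and Atp6v1g3, each with 0 counts, Atp6v1b1 with 1, Atp6v1c2 with 3, Atp6v1e2 with 5 and Atp6v0e2 with 15 in all libraries together. They are forms known from kidney, testis or brain.

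Per length, the order of the 10 genes differed between conditions. The place of a gene in it depends on the length used, as said of the shares. Atp6v0d1 led with IL-33, at 101 ± 1.82 RPKM in Nbeal2-/- and 111 ± 1.73 RPKM in WT. Atp6ap1 led without it, at 95.5 ± 2.51 RPKM in Nbeal2-/- and 109.5 ± 2.73 RPKM in WT. The ranges of these 2 genes overlapped in WT with IL-33 and in no other group. Atp6v1a was the next in every group, at 27.6 ± 1.12 RPKM in Nbeal2-/- with IL-33, 16.4 ± 1.28 in untreated Nbeal2-/-, 32.7 ± 0.847 in WT with IL-33 and 20.3 ± 1.21 in untreated WT. Atp6v0a1 ranked 4 with IL-33 in both genotypes, against 8 in untreated Nbeal2-/- and 7 in untreated WT. Tcirg1 ranked 9 with IL-33 in both genotypes, against 7 in untreated Nbeal2-/- and 8 in untreated WT. Atp6v0d2 was last in all 4 groups.

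The remaining neighbours in that order were Atp6v0a2, Atp6v1b2, Atp6v1c1 and Atp6v1h. With IL-33 the order was Atp6v0a2, Atp6v1c1, Atp6v1b2 and Atp6v1h in both genotypes, and only the first 2 overlapped, in WT. In untreated Nbeal2-/- cells Atp6v0a2 overlapped both Atp6v1a above it and Atp6v1b2 below it, and Atp6v1c1 overlapped Tcirg1. In untreated WT cells Atp6v1b2 overlapped Atp6v0a2, and Atp6v0a1 overlapped Tcirg1. Within a library, Atp6v1a stood above Atp6v0a2 in 4 of 4 untreated Nbeal2-/- libraries, Atp6v0d1 above Atp6ap1 and Atp6v0a2 above Atp6v1c1 in 4 of 4 WT libraries with IL-33, and Atp6v0a1 above Tcirg1 in 4 of 4 untreated WT libraries. The other overlapping neighbours kept their order in 3 of 4 libraries.

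The pump transcripts were next compared between genotypes. In untreated cells 7 of the 10 genes were lower in Nbeal2-/- than in WT and 3 did not pass, while 35.9% of all genes tested passed, with 17.5% of all genes lower and 18.4% higher. With IL-33, 5 were lower in Nbeal2-/- and 5 did not pass, while 11.2% of all genes tested passed, with 5.69% of all genes lower. The median log2 difference of the 10 genes was -0.15 untreated and -0.16 with IL-33, beside -0.01 and 0.00 over all genes. In 5 genes the libraries of the genotypes did not overlap when untreated (28.2% of all genes), and in 8 with IL-33 (22.9%). The 2 comparisons used different libraries, but the libraries of a genotype were paired by number between conditions, so the 2 are not independent. Both counts moved with the libraries used. The untreated count was 3 without all libraries numbered 2 and 4 without those numbered 3. With IL-33 the count was 3 without Nbeal2-/- IL-33 replicate 4 or WT IL-33 replicate 2, and 2, 1 and 1 without all libraries numbered 2, 3 and 4.

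Apart from the sparse Atp6v0d2, at 1.73-fold lower on few counts, Atp6v0a1 differed most in untreated cells. It averaged 45.6 ± 1.21 CPM in untreated Nbeal2-/- and 75.9 ± 3.24 CPM in untreated WT, a 1.66-fold lower level (log2 -0.73, SE 0.04, adjusted p = 4.6e-09). With IL-33 it averaged 156 ± 6.30 CPM in Nbeal2-/- and 182 ± 4.69 CPM in WT, a 1.17-fold lower level (log2 -0.23, SE 0.04, adjusted p = 0.00144). The genotypes did not overlap under either condition. Atp6v1a was lower by 0.33 in log2 untreated (SE 0.05, adjusted p = 0.000235) and by 0.24 with IL-33 (SE 0.05, adjusted p = 0.00752), also without overlap. The Atp6v1a call with IL-33 was lost without all libraries numbered 3 (0.0699) or 4 (0.079).

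The other genes that passed in untreated cells differed by less than 0.25 in log2, apart from the sparse Atp6v0d2. Atp6ap1 was lower in Nbeal2-/- by 0.21 in log2 untreated (SE 0.04, adjusted p = 0.000349) and by 0.13 with IL-33 (SE 0.04, adjusted p = 0.0261). Leaving out any 1 of Nbeal2-/- IL-33 replicates 1 to 4 or WT IL-33 replicates 1 and 2 ended the Atp6ap1 call with IL-33, at adjusted p from 0.0513 to 0.0889, as did no filter on low counts (0.12) and leaving out all libraries numbered 2 (0.169), 3 (0.0968) or 4 (0.148). Because Atp6ap1 is X-linked, Xist was read beside it. Xist exceeded 100 RPM in both libraries of Nbeal2-/- replicates 2, 3 and 4 and of WT replicates 3 and 4, and was under 1 RPM in the others, so the genotypes differed in how many replicates had it. In Nbeal2-/- replicates 3 and 4 it was at 127 to 403 RPM, against 904 to 1913 RPM in the other libraries that had it. Atp6ap2 is X-linked too. The part of Xist status in the Atp6ap1 result, or in any other genotype difference, was not tested.

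Atp6v1b2 was lower in Nbeal2-/- by 0.14 in log2 untreated (adjusted p = 0.0105) and by 0.16 with IL-33 (adjusted p = 0.0154), SE 0.04 each. The untreated Atp6v1b2 call was lost with no filter (0.064), with only the groups compared (0.0556) and without all libraries numbered 2 (0.0576) or 4 (0.167), and the IL-33 call without those numbered 2 (0.132), 3 (0.0865) or 4 (0.116). Atp6v1c1 was lower by 0.14 untreated (adjusted p = 0.016) and by 0.16 with IL-33 (adjusted p = 0.0173), SE 0.04 each. The untreated Atp6v1c1 call was lost with no filter (0.0872), with only the groups compared (0.0532) and without the libraries numbered 2 (0.0873) or 3 (0.0524). Its IL-33 call was lost with no filter (0.0514), without the libraries numbered 2 (0.0726), 3 (0.127) or 4 (0.133), and without Nbeal2-/- IL-33 replicate 4 (0.0641) or WT IL-33 replicate 2 (0.0535) or 3 (0.0505). Atp6v0d1 differed by -0.16 untreated (SE 0.04, adjusted p = 0.00715), where libraries overlapped, and by -0.12 with IL-33 (adjusted p = 0.0736), where they did not. The untreated Atp6v0d1 call was lost without the libraries numbered 2 (0.0556), 3 (0.0666) or 4 (0.0504), and the IL-33 difference passed by DESeq2 (0.0183), by limma (0.0383), with only the groups compared (0.00903) and without the libraries numbered 1 (0.0137). Atp6v0d2 differed by -0.79 untreated (SE 0.27, adjusted p = 0.0293), with overlap, and by -0.61 with IL-33 (SE 0.32, adjusted p = 0.249). The untreated Atp6v0d2 call was lost with only the groups compared (0.0895), without all libraries numbered 2 (0.205) or 3 (0.178), and without Nbeal2-/- replicate 1 (0.0855), 2 (0.0611) or 3 (0.0737) or WT replicate 2 (0.104) or 3 (0.0702).

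For 3 genes the genotype test was not passed under either condition. Tcirg1 differed by -0.01 in log2 untreated (SE 0.05, adjusted p = 0.92) and by 0.03 with IL-33 (SE 0.05, adjusted p = 0.777). Atp6v0a2 differed by 0.01 (SE 0.05, adjusted p = 0.875) and 0.07 (SE 0.05, adjusted p = 0.457). Atp6v1h differed by -0.12 untreated (SE 0.06, adjusted p = 0.161) and by -0.15 with IL-33 (SE 0.06, adjusted p = 0.133), which passed with only the groups compared (0.0239) and without all libraries numbered 1 (0.0316). The libraries of Tcirg1 and Atp6v0a2 overlapped between genotypes under both conditions. Those of Atp6v1h overlapped only when untreated.

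**Figure D4:**
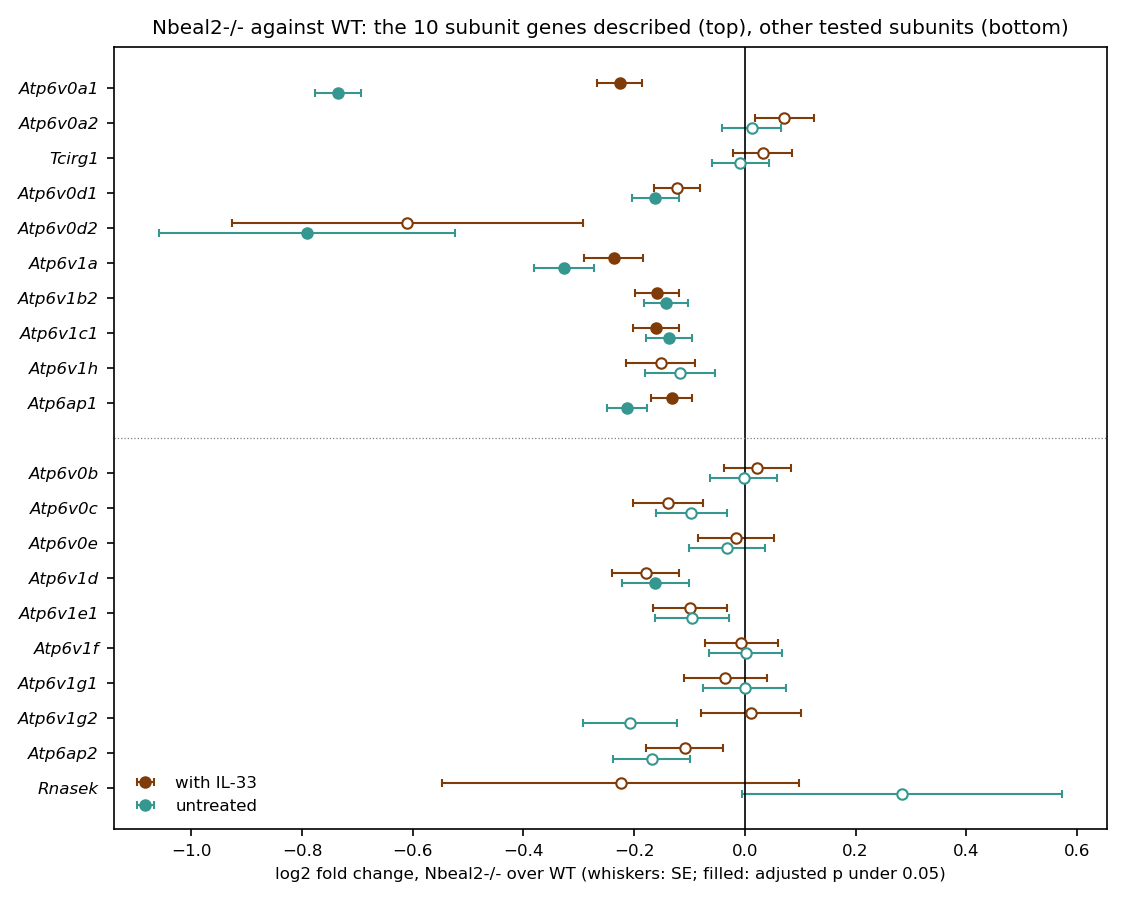
Log2 fold change of Nbeal2-/- over WT (horizontal axis) for the 10 genes described (top) and 10 other tested pump subunits (bottom), with IL-33 and untreated. Whiskers are SE and filled points passed the test at adjusted p under 0.05. Atp6v0a1 in untreated cells lies at -0.73 with a narrow whisker, and apart from the sparse Atp6v0d2 every other point lies nearer to 0.

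Of the 10 other tested subunits, 1 was lower in untreated Nbeal2-/- cells and 9 did not pass. This was Atp6v1d, a central stalk subunit of V1, at log2 -0.16 (SE 0.06, adjusted p = 0.0452). The count was 0 without any 1 of untreated Nbeal2-/- replicates 2, 3 and 4 or WT replicates 2 and 3, and 4 without untreated Nbeal2-/- replicate 1. With IL-33 none of the 10 passed edgeR's test, 2 had an unadjusted p under 0.05, and DESeq2 and limma each called 1. The median log2 difference of the 10 was -0.06 untreated and -0.07 with IL-33. Markers of other cell types were read beside the genotype comparison. The summed level of 3 basophil markers ran from 277 to 302 CPM in Nbeal2-/- with IL-33, against 294 to 346 CPM in WT with IL-33, and from 296 to 331 CPM in untreated Nbeal2-/-, against 351 to 424 CPM in untreated WT. Cd200r3 made up most of that sum, while Mcpt8 averaged 51.9 CPM in Nbeal2-/- with IL-33 and 97.8 CPM in WT with IL-33 (log2 -0.91, adjusted p = 0.00528). The 6 megakaryocyte markers, with Ppbp at 0 in all groups, ran from 1455 to 1583 CPM in Nbeal2-/- with IL-33, against 1468 to 1503 CPM in WT with IL-33, and from 2088 to 2358 CPM in untreated Nbeal2-/-, against 2389 to 2500 CPM in untreated WT. With IL-33 both sums overlapped between the genotypes, and in untreated cells neither did. Itga2b made up most of the megakaryocyte sum, averaging 1459.9 CPM in Nbeal2-/- and 1411 CPM in WT with IL-33. In untreated cells Itga2b ran from 1822 to 2101 CPM in Nbeal2-/- and from 2068 to 2149.8 CPM in WT, with overlap. Pf4 had 2 to 4 counts per group, and Gp9 averaged at most 2.63 CPM in any group. The megakaryocyte sum therefore says little of its sparser markers. Of the 10 tested macrophage and osteoclast markers, 1 was higher and 2 were lower in Nbeal2-/- than in WT under each condition. Of all 15470 genes tested, 2840 were higher and 2709 lower untreated, and 849 and 881 with IL-33. The median log2 difference of the 10 markers was -0.41 untreated and -0.43 with IL-33. The 1 higher marker was Adgre1, or F4/80, at 25.2 ± 5.01 CPM in untreated Nbeal2-/- and 8.42 ± 0.688 CPM in untreated WT (adjusted p = 2.32e-07). With IL-33 it was at 20.8 ± 2.5 CPM in Nbeal2-/- and 11.7 ± 0.989 CPM in WT (adjusted p = 0.000318). The means of Cd68 and Marco ran the other way. Cd68 averaged 5.23 CPM in untreated Nbeal2-/- and 7.72 CPM in untreated WT, and 4.66 and 6.59 CPM with IL-33. Marco averaged 0.0812 and 0.240 CPM untreated, and 3.98 and 6.78 CPM with IL-33. Itgax was near equal in untreated cells, at 4.15 and 4.04 CPM. The 7 neutrophil markers reached at most 0.0595 CPM and the 5 dendritic cell markers at most 0.667 CPM in any library. The part of these markers, and of the lower mast cell marker sum, in the genotype differences was not tested.

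Whether IL-33 acted differently in the 2 genotypes was tested directly, as the difference of the log2 responses. Among the 10 genes 1 passed, Atp6v0a1, and 9 did not, while 4.56% of all genes tested passed, 2.01% with the larger response in Nbeal2-/-. The response of Atp6v0a1, per pair of same-numbered libraries, was 1.89, 1.69, 1.77 and 1.74 in log2 in Nbeal2-/- and 1.35, 1.28, 1.25 and 1.18 in WT. Every Nbeal2-/- response exceeded every WT response, as the plot of paired responses shows. The fitted difference was 0.51 in log2 (SE 0.06, adjusted p = 0.00022). As given above, the untreated level of Atp6v0a1 was 1.66-fold lower in Nbeal2-/-, and the level with IL-33 was 1.17-fold lower.

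**Figure D5:**
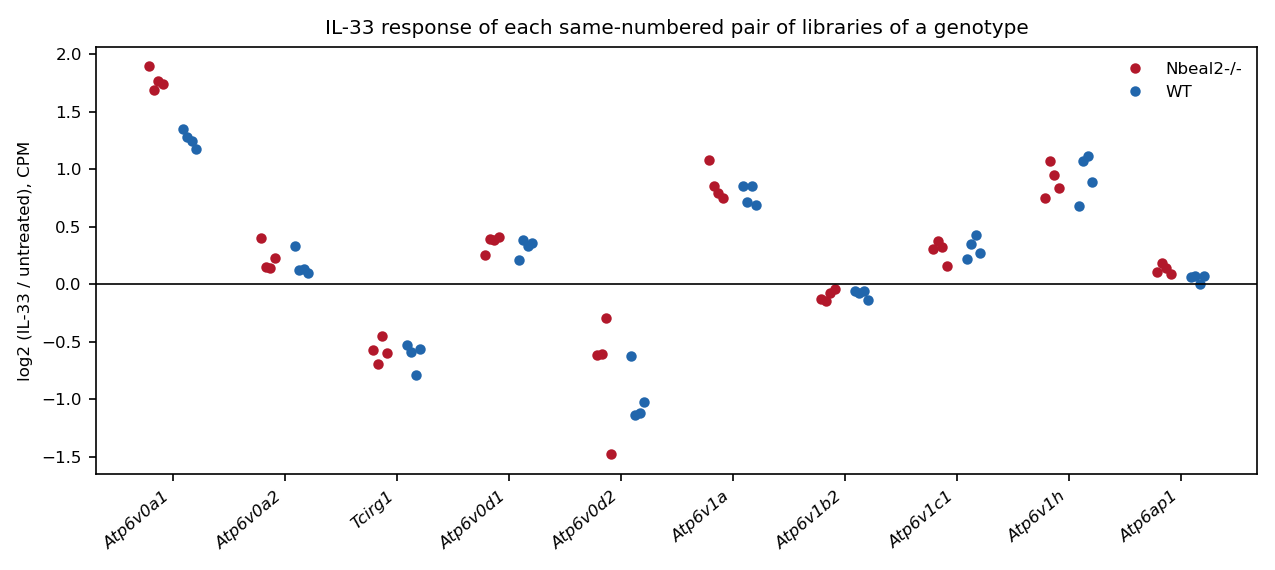
Log2 ratio of IL-33 over untreated CPM (vertical axis) for each same-numbered pair of libraries, 4 pairs per genotype, for the 10 genes. Points are pairs. The Atp6v0a1 pairs lie between 1.69 and 1.89 in Nbeal2-/- and between 1.18 and 1.35 in WT, the Atp6ap1 pairs of Nbeal2-/- also lie above those of WT, and the pairs of the other 8 genes overlap between genotypes.

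For the other 9 genes the fitted difference of responses, Nbeal2-/- minus WT, ran from -0.04 for Atp6v1h (SE 0.09) to 0.18 for Atp6v0d2 (SE 0.42). Atp6v1a had 0.09 (SE 0.08, adjusted p = 0.561) and Atp6ap1 0.08 (SE 0.05, adjusted p = 0.42), although each of its Nbeal2-/- pairs lay above each WT pair. Tcirg1 had 0.04 (SE 0.07, adjusted p = 0.812). Of the 10 other tested subunits none passed by edgeR, DESeq2 or limma, and none had an unadjusted p under 0.05.

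The genes whose group means ran most like those of Atp6v0a1 were found by the distance between the 4 centred mean log2 levels. A small prior count was added before the logarithm, which raises the levels of sparse genes and narrows their differences. Atp6v0a1 was taken because its group means spanned the widest range of the 10 genes, 2.00 in log2. The 5 nearest were Rgs16 at a distance of 0.06, Furin at 0.12, Sgce at 0.15, Olfml2b at 0.17 and Clec4e at 0.21. Furin, a proprotein convertase of the secretory pathway, was abundant, with geometric means of 3208 CPM in Nbeal2-/- with IL-33, 880.1 in untreated Nbeal2-/-, 3577 in WT with IL-33 and 1394 in untreated WT. Rgs16, a regulator of G protein signalling, was sparse, at 0.403, 0.122, 0.487 and 0.194 CPM in the same groups with the prior included. The distance rests on 4 group means, for sparse genes also on the prior, and says nothing of shared control.

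Genes around the pump were counted from lists that were also chosen with earlier results known. The list of assembly and regulatory factors had 10 tested genes. With IL-33, 5 rose and 1 fell in Nbeal2-/- and 3 rose and 2 fell in WT, beside 27.2% higher and 27.9% lower of all genes in Nbeal2-/- and 28.9% and 28.6% in WT. Under each condition 3 were lower in Nbeal2-/- than in WT, beside 17.5% of all genes untreated and 5.69% with IL-33. Rogdi, a partner of the complex that puts V1 back onto V0, averaged 6.80 ± 0.852 CPM in Nbeal2-/- with IL-33 and 20.0 ± 1.98 CPM untreated, and 5.64 ± 0.411 CPM in WT with IL-33 and 17.9 ± 1.75 CPM untreated. Its log2 change was -1.56 in Nbeal2-/- (SE 0.10, adjusted p = 4.06e-10) and -1.66 in WT (SE 0.10, adjusted p = 2.01e-10). Dmxl2, a large subunit of that complex, rose by 0.84 in log2 in Nbeal2-/- (SE 0.13, adjusted p = 2.95e-05) and by 0.33 in WT (SE 0.12, adjusted p = 0.0301). The difference of these 2 responses did not pass (0.51, adjusted p = 0.124). Dmxl2 was lower in Nbeal2-/- than in WT by 0.95 untreated (SE 0.13, adjusted p = 4.16e-05) and by 0.44 with IL-33 (SE 0.13, adjusted p = 0.029). Tmem199, which helps assemble V0 in the endoplasmic reticulum, rose by 0.46 in Nbeal2-/- and by 0.51 in WT (SE 0.07 each).

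Ion partners of acid organelles, which take in proton-driven carriers, chloride exchangers with the accessory gene Ostm1, and cation channels of the Tpcn, Mcoln and Tmem175 kinds, made up a list of 14 tested genes. With IL-33, 5 rose and 4 fell in Nbeal2-/-, and 4 rose and 5 fell in WT, while 55.1% of all genes passed in Nbeal2-/- and 57.6% in WT. In untreated cells 9 were lower in Nbeal2-/- than in WT, beside 17.5% of all genes, and with IL-33 2 were, beside 5.69%. The vesicular amine transporter Slc18a2 averaged 817 ± 43.6 CPM in Nbeal2-/- with IL-33 and 1586 ± 32.5 CPM untreated, and 800.3 ± 45.1 CPM in WT with IL-33 and 1818 ± 73.2 CPM untreated. It fell by 0.96 in log2 in Nbeal2-/- (SE 0.05, adjusted p = 3.01e-11) and by 1.18 in WT (SE 0.05, adjusted p = 1.65e-12). Slc9a9, a sodium/proton exchanger of endosomes, fell by 0.64 in Nbeal2-/- and by 1.02 in WT (SE 0.09 each). The chloride/proton exchanger gene Clcn6 rose by 0.64 in Nbeal2-/- and by 0.38 in WT (SE 0.06 each). The transcripts of Slc18a2 and of Atp6v0a1 thus moved in opposite directions with IL-33. Clcn3, a related exchanger, was the 1 gene of this list whose response differed between genotypes, by 0.47 in log2 (SE 0.11, adjusted p = 0.0234). Of all genes tested, 4.56% passed that test.

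The pump also anchors Ragulator and the Rag GTPases, which tell mTORC1 of amino acids, on the lysosome. Of 13 such genes, 2 rose and 4 fell with IL-33 in Nbeal2-/-, and 4 rose and 6 fell in WT, while 55.1% of all genes passed in Nbeal2-/- and 57.6% in WT. In untreated cells 1 was higher and 7 were lower in Nbeal2-/- than in WT, beside 18.4% and 17.5% of all genes, and with IL-33 5 were lower, beside 5.69%. Lamtor4, a Ragulator subunit, fell by 0.61 in log2 in Nbeal2-/- and by 0.66 in WT (SE 0.10 each). Slc38a9, the arginine sensor of the lysosome, fell by 0.20 in Nbeal2-/- and by 0.42 in WT (SE 0.05 each). Fnip1, a partner of folliculin, was lower in Nbeal2-/- by 0.46 untreated and by 0.34 with IL-33 (SE 0.07 each).

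TFEB, TFE3 and MITF are transcription factors known to bind the CLEAR motif in lysosomal and pump genes. All 3 tested genes of this family passed the test with IL-33 in both genotypes, 1 higher and 2 lower. Of all genes tested, 55.1% passed in Nbeal2-/- and 57.6% in WT. Tfe3 rose to 70.9 ± 1.31 CPM in Nbeal2-/- with IL-33, against 37.3 ± 1.25 CPM untreated, and to 72.1 ± 3.41 CPM in WT with IL-33, against 38.6 ± 1.91 CPM untreated. Its log2 change was 0.93 in Nbeal2-/- (SE 0.05, adjusted p = 1.58e-11) and 0.90 in WT (SE 0.05, adjusted p = 2.17e-11). Mitf fell by 0.64 in Nbeal2-/- (SE 0.05, adjusted p = 1.35e-08) and by 0.80 in WT (SE 0.05, adjusted p = 7.51e-10). Tfeb was sparse, at 0.190 ± 0.0469 CPM in Nbeal2-/- with IL-33 and 0.753 ± 0.260 CPM untreated, and at 0.502 ± 0.0741 CPM in WT with IL-33 and 1.49 ± 0.361 CPM untreated. It fell by 1.97 in log2 in Nbeal2-/- (SE 0.29) and by 1.56 in WT (SE 0.24). Its level was lower in Nbeal2-/- than in WT by 0.99 untreated (adjusted p = 0.00264) and by 1.40 with IL-33 (adjusted p = 0.00628). These are transcript levels and say nothing of the activity of the factors.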

How the data were processed

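RNA of 16 libraries was prepared with a strand-specific poly(A) kit, per the labels' protocols. Per the submitters' processing notes, the tools were bcl2fastq 2.20.0.422 and featureCounts 1.6.5 and the build was GRCm38. No aligner, annotation release or strand setting is named there, so overlapping genes are named where they could share reads. The authors deposited 3 tables of the 16 libraries, holding raw counts, RPM and RPKM of each gene. The deposited RPM equalled counts scaled by the column total, with a largest difference of 4.91e-11, and the deposited RPKM were used for levels and shares only. Of 55487 genes, 29066 had no count in any library. Even in the shallowest library, 1 CPM stands for 36.4 counts.

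The counts were tested in R 4.3.3 with edgeR 4.0.16: TMM scaling, filterByExpr over the 4 groups, which left 15470 genes, and 1 robust quasi-likelihood model of 4 group means, with a common biological coefficient of variation of 9.56%. From it 5 contrasts were taken, with Benjamini-Hochberg adjustment over all genes tested and a threshold of 0.05. Unless another test is named, every adjusted p is from that fit. CPM values are TMM-scaled. The procedure was tried on simulated data for the untreated genotype contrast only, with a small part of the genes changed and no pairing. That trial does not cover the other contrasts. Alternatives were RLE size factors, no filter, DESeq2 1.42.0, limma 3.58.1 on log2(RPM + 1), only the groups compared, a replicate block and leaving out libraries. Libraries of the same group differed by more than sampling noise (chi-square over degrees of freedom at least 5.53), so each counted as 1 sample.

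Deviations from the group means of same-numbered libraries of 1 genotype correlated at r = 0.171 to 0.369 over genes, above 0.1 in all 8 pairs. Among the untreated libraries of its genotype, each IL-33 library correlated best with that of its own number. The numbers therefore pair IL-33 and untreated libraries within a genotype. The members of the gene set and all gene lists were chosen with earlier results of these data known. Named genes are the 10 genes, the other subunits, Nbeal2, up to 3 tested genes per further list with the smallest p, defining markers and the 5 genes nearest to Atp6v0a1. A few further genes are named outside that rule, such as Clcn3, and were chosen after their values were seen.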

Additional observations from a re-analysis of the deposited data

Results flagged for a closer look

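Among 40 sets of 4 libraries, 1 for each of the 10 genes in each group, 6 held a library whose gap to its nearest neighbour took up more of the group's range than Dixon's 95% limit allows. Chance alone flags about 1 set in 20. For Atp6v0a1 the Nbeal2-/- IL-33 replicate 1, at 165 CPM, lay above the other 3, with a gap of 0.86 of the range. In untreated Nbeal2-/- cells Atp6v1a had a low replicate 1, at 86.0 CPM (gap 0.866), Atp6v1b2 a low replicate 4, at 68.7 CPM (0.944), Atp6v1c1 a high replicate 4, at 67.5 CPM (0.929), and Atp6ap1 a low replicate 2, at 266 CPM (0.864). In WT with IL-33, Atp6v0a2 had a low replicate 4, at 107 CPM (0.833). Of the 6, 4 fell in untreated Nbeal2-/- cells, where replicate 4 was the library set apart for 2 genes. None of the 16 sets of isoform shares was flagged.

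The IL-33 response of Atp6v0a1 differed between the genotypes by 0.51 in log2 (adjusted p = 0.00022 by edgeR), and each of the 4 Nbeal2-/- pairs of libraries had a larger response than each of the 4 WT pairs.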

How the results depend on the processing

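The total counts of called genes for the IL-33 responses stayed within 1.5 times under every alternative run. The number lower with IL-33 in Nbeal2-/-, 3, was 1 without all libraries numbered 2, 3 or 4, when Atp6v0d2 and Atp6v1b2 lost their calls. No called direction of the 10 genes reversed. Tcirg1, Atp6v0a1, Atp6v1a, Atp6v1h, Atp6v0d1 and Atp6v1c1 kept their IL-33 calls in both genotypes under all of them. The response difference of Atp6v0a1 kept its call, at 0.47 to 0.54. For all genes, limma on log2(RPM + 1) gave 33.8% of the called genes as higher with IL-33 in Nbeal2-/- and 38.1% in WT, against 49.4% and 50.3% by edgeR.

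The genotype counts were less stable, and the cause was not tested. Of the 10 genes, 7 were called untreated, against 4 with only the groups compared and 3 to 7 with libraries left out. With IL-33, 5 were called, against 3 with no filter and 1 to 7 with libraries left out. Of the other subunits, 1 was called untreated, against 2 with RLE size factors or DESeq2, 0 with no filter or only the groups compared, and 0 to 4 with libraries left out. With IL-33 0 were called, against 1 by DESeq2 or limma, 2 with only the groups compared and 0 to 2 with libraries left out. Over all genes, the genotype call count with IL-33 was 1730, against 3113 with only the groups compared, and 671 to 2051 with 1 number left out. In untreated cells it was 5549 and 3069 to 5993. The response difference had 706, against 1207 by DESeq2 and 86 to 1279 with 1 number left out.

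Shares from RPM, without division by length, gave Atp6v0a1 50.8% in Nbeal2-/- with IL-33, 23.3% in untreated Nbeal2-/-, 55.8% in WT with IL-33 and 33.6% in untreated WT. In the same group order Atp6v0a2 had 38.1%, 50.8%, 34.0% and 43.7%, Tcirg1 11.1%, 25.9%, 10.2% and 22.6%, and Atp6v0d2, of the d subunit, 0.178%, 0.406%, 0.249% and 0.628%.

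The replicate block, within a genotype, changed no other call of the 10 genes than that of Atp6v1b2 in Nbeal2-/-. Between genotypes same-numbered libraries correlated at r = -0.039 to 0.506. The libraries numbered 1 had the highest values, 0.506 untreated and 0.238 with IL-33, and the other numbers reached at most 0.163. What the libraries numbered 1 share across genotypes was not tested. The numbers were not taken as pairs between genotypes, and the block there changed no call of the 10 genes. Atp6v0d2 rests on 12 to 55 counts per library, which limits its precision.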
